A study of Mus musculus with 6 samples.

Results

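Enzymes of the urea cycle and the genes that set where ammonia and glutamine are handled in the liver lobule were followed in the livers of mice fed alcohol or a control diet. The 9 genes were Cps1, Otc, Ass1, Asl, Gls2, Glul, Oat, Rhbg and Axin2. They were found by gene name in the scanner output of all 6 arrays, where 13 of the 41174 probes, and 9 of 27962 gene names, were theirs. Otc had 3 probes, Ass1 and Glul had 2 each, and the other 6 genes had 1. The brightest probe stands for a gene, and the others are given where they differ.

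The mice were male, of strain 129/Sv, and 6 to 8 weeks old when treatment began. The alcohol group had free access to a liquid diet with 4% ethanol (Lieber-DeCarli), and the controls received an isocaloric liquid diet in which maltose dextran took the place of the ethanol. A preconditioning period of 7 days on the control diet came before in both groups. Livers were taken after 1, 2 and 4 months, and RNA of 6 mice was pooled per group and month, giving 6 pools. The alcohol and control pools of a month were hybridized together on 2 arrays with Cy5 and Cy3 exchanged. A dye-swap pair is thus 1 replicate, and the spread between mice cannot be seen. Precision is limited by having so few arrays. The 1-month arrays shared a slide, and the later months shared a different one. Slide and time thus cannot be told apart in comparisons with 1 month.

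In liver, ammonia entering with portal blood is first met by periportal hepatocytes, which turn it into urea. Their mitochondrial glutaminase, encoded by Gls2, frees ammonia from glutamine next to carbamoyl phosphate synthetase, encoded by Cps1. A narrow rim of pericentral hepatocytes around the central vein takes up the ammonia that escapes and binds it to glutamate with glutamine synthetase, encoded by Glul. Pericentral expression of Glul, Oat, Rhbg and Axin2 is known to depend on Wnt and beta-catenin signaling. Bulk RNA holds both zones, and fewer cells of a type cannot be told apart from less RNA per cell.

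Sequences given as upstream from RefSeq (GRCm38.p6) were available for 5 of the 9 genes, Glul, Ass1, Oat, Axin2 and Otc. Cps1, Asl, Gls2 and Rhbg had no entry in the set of upstream sequences used, though the assembly places them. The 250 bases before the start of Glul (chr1:153899679-153899928, plus strand) and of Oat (chr7:132576399-132576648, minus strand) are shown, because these are the pericentral enzymes whose ratios are described most closely below. Capitals mark the letters CCAAT on either strand.
Glul: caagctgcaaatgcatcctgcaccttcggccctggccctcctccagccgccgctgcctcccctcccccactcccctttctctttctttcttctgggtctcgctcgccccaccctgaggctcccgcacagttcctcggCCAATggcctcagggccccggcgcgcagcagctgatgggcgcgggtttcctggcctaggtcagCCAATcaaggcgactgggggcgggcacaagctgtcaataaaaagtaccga
Oat: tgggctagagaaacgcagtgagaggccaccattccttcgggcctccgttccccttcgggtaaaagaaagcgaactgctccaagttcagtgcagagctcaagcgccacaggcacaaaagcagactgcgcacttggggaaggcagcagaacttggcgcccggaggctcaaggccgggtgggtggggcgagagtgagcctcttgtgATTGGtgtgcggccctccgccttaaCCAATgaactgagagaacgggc
Both held 2 copies of CCAAT on either strand, and the windows of Ass1, Axin2 and Otc held 0. The Axin2 window (chr11:108920099-108920348) lies inside the gene, which starts at 108917828. The Otc window ends at 10252304, past the gene start at 10252230. These 2 windows thus do not lie wholly upstream of the gene. CCAAT occurred in 33.8% of the 32851 upstream windows of this length. The TATA box TATAAA was searched on both strands in the same way and occurred in 12.4% of all windows. The core of the TCF motif, CTTTG, occurred in 48.6% of them. The cyclic AMP response element, TGACGTCA, occurred in 1.55%. The TATA, TCF and cyclic AMP motifs had 0 matches in the windows of the 5 genes. These are matches of letters only.

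Of the 13 probes, 12 exceeded background clearly in every pool and array, and 0 were saturated. The exception was Axin2, which was well above background only in the alcohol pool at 2 months. Across all arrays and channels, 73.3% to 90.3% of spots were well above background. Over the 27900 probes well above background throughout, the Pearson r between the dye-swapped arrays was 0.16 for the 1-month pools, -0.30 for the 2-month pools and -0.32 for the 4-month pools, a description across probes that share arrays. The dye-following component, taken as the difference between the arrays of a month divided by 2, had an SD over these probes of 0.14, 0.25 and 0.31 at 1, 2 and 4 months. The averaged log2 ratio had an SD of 0.17, 0.19 and 0.22.

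The 4 urea cycle enzymes differed little between alcohol and control pools. The averaged log2 ratios of all 4 lay between -0.03 and 0.13 at 1 month, between -0.23 and 0.14 at 2 months and between -0.07 and 0.19 at 4 months. At all 3 months, 0 of the 4 averages were larger than the SD of their pair of arrays. The arrays of a pair had opposite signs for all 4 enzymes at each month.

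Cps1 makes carbamoyl phosphate from ammonia and sets the pace of the cycle. At 1 month its log2 ratio of alcohol over control was -0.09 with alcohol in Cy5 and 0.02 with alcohol in Cy3. At 2 months these were -0.33 and 0.12, and at 4 months -0.47 and 0.44. The averages were -0.03 ± 0.08, -0.10 ± 0.32 and -0.01 ± 0.64 (SD of the 2 arrays). The Cy3 label thus gave the higher ratio each time, by an amount greater than the average itself. With limma, the mean log2 ratio over the 3 months was -0.05 (SE 0.06, 95% confidence interval -0.21 to 0.11, adjusted p = 0.84).

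Otc joins carbamoyl phosphate to ornithine. With alcohol in Cy5 given first here and in the values that follow, its log2 ratios were -0.18 and 0.36 (1 month), -0.71 and 0.26 (2 months) and -0.45 and 0.31 (4 months). Its averages were 0.09, -0.23 and -0.07. A second Otc probe, A_52_P286360, carried little of the dye difference at the later months, with log2 ratios of -0.25 and -0.30 (2 months) and -0.12 and -0.11 (4 months). It was lower in the alcohol pool on both arrays of these months, but at 1 month the arrays gave 0.13 and -0.16. Over the 3 months the limma estimate of this probe was -0.14 (SE 0.08, adjusted p = 0.67), and that of the brightest probe was -0.07 (SE 0.08, adjusted p = 0.84). The faintest Otc probe, A_52_P369776, averaged 0.20, -0.28 and -0.01.

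Ass1, which condenses citrulline with aspartate, showed the opposite dye pattern. Its brightest probe gave 0.51 and -0.25 (1 month), 0.46 and -0.18 (2 months) and 0.89 and -0.50 (4 months) on the log2 scale. The averages of 0.13, 0.14 and 0.19 were alike at the 3 months and small beside the pair SDs of 0.54, 0.45 and 0.98. The limma estimate of 0.15 (SE 0.06, 95% confidence interval 0.00136 to 0.31) had an unadjusted p of 0.0487, and an adjusted p of 0.62 over all 37922 probes tested. The second Ass1 probe averaged 0.35, 0.13 and 0.03, a different course over time.

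Asl, which splits argininosuccinate, had log2 ratios of -0.04 and 0.08 (1 month), -0.32 and 0.49 (2 months) and -0.50 and 0.79 (4 months), averaging 0.02, 0.08 and 0.15. Its arrays lay on either side of 0 at all 3 months, and farthest apart at 4 months. The 95% confidence interval of the 3-month mean was -0.08 to 0.24 by limma.

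Gls2, the liver glutaminase, had log2 ratios of -0.09 and 0.52 (1 month), -0.83 and -0.03 (2 months) and -0.80 and 0.61 (4 months). The month with both arrays below 0 was the second, with an average of -0.43 ± 0.57 (SD of the 2 arrays), where 1 array was near 0. The averages at 1 and 4 months were 0.21 ± 0.44 and -0.10 ± 1.00. The 3-month mean was -0.10 (SE 0.13, 95% confidence interval -0.45 to 0.24, adjusted p = 0.85 by limma).

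**Figure D1:**
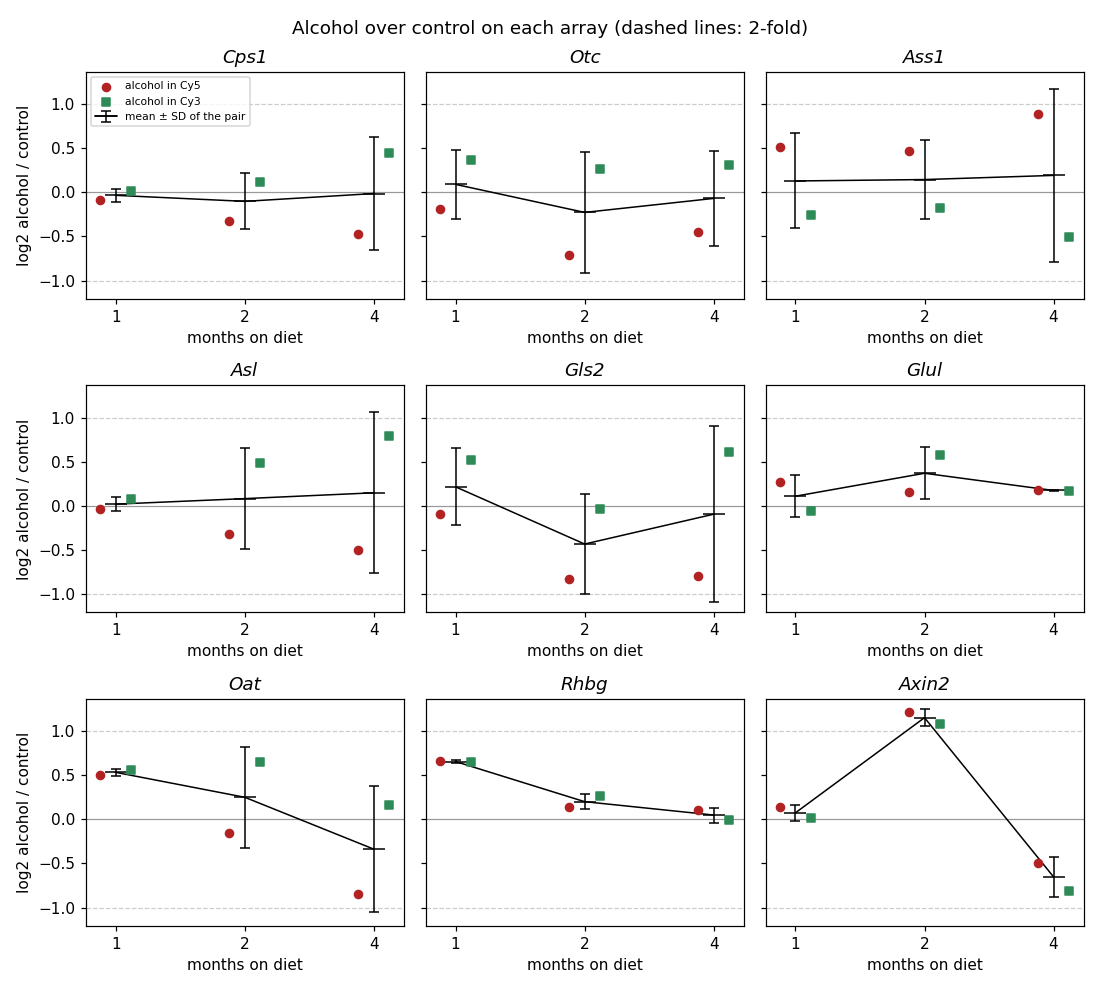
Log2 ratio of alcohol over control (vertical axis) at 1, 2 and 4 months (horizontal axis) for the brightest probe of each gene. Circles are the array with alcohol in Cy5, squares that with alcohol in Cy3, black marks their mean ± SD, and dashed lines 2-fold. The averages of the 4 urea cycle genes lie between -0.23 and 0.19, with arrays on either side of 0, and Gls2 lies lowest at 2 months at -0.43. Rhbg gave 0.66 and 0.64 at 1 month and fell towards 0.

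The pericentral genes had averaged log2 ratios above 0 at 1 and 2 months. This held for all 4 genes, and 3 of 4 were above 0 on both arrays at each, where 22.0% of all probes tested at 1 month and 17.5% at 2 months were. At 4 months 1 of the 4, Glul, was above 0 on both arrays, beside 14.8% of all probes. The gene with arrays on either side of 0 was Glul at 1 month and Oat at 2 months. These counts include Axin2, whose signal did not clear background at 1 month, nor in the control pool at 2 months. Among the other 3 genes, 2 were above 0 on both arrays at each of these months, Oat and Rhbg and then Glul and Rhbg.

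Rhbg, a membrane channel for ammonia, differed little between the arrays of a pair. Its log2 ratio was 0.66 and 0.64 (1 month), 0.14 and 0.26 (2 months) and 0.11 and -0.01 (4 months). The average was 0.65 ± 0.01 at 1 month, a 1.57-fold higher signal in the alcohol pool, then 0.20 ± 0.08 and 0.05 ± 0.09 (SD of the 2 arrays). At 1 month, 0.269% of all probes tested were at least as high on both arrays, and at 2 months 5.80%. The slope against log2 month was -0.30 (SE 0.09, 95% confidence interval -0.55 to -0.06), with an unadjusted p of 0.0265 and an adjusted p of 0.651 by limma. The 3-month mean was 0.30 (SE 0.13, 95% confidence interval -0.04 to 0.64, adjusted p = 0.626), and 0.12 without the 1-month value.

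Oat moves the amino group of ornithine on towards glutamate and so draws ornithine away from the urea cycle. Its log2 ratio was 0.50 and 0.56 (1 month), -0.15 and 0.65 (2 months) and -0.84 and 0.16 (4 months). The alcohol pool was higher on both arrays at 1 month, by 1.45-fold on average, and the arrays disagreed in sign afterwards. The averages were 0.53 ± 0.04, 0.25 ± 0.57 and -0.34 ± 0.71 (SD of the 2 arrays). At 1 month, 0.493% of all probes tested were at least as high on both arrays. The slope was -0.44 (SE 0.09, 95% confidence interval -0.68 to -0.19), with an unadjusted p of 0.00766 and an adjusted p of 0.627 by limma. Without the 1-month value, the mean was -0.04, against 0.15 with it.

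Glul, glutamine synthetase, had log2 ratios of 0.27 and -0.06 (1 month), 0.16 and 0.58 (2 months) and 0.18 and 0.17 (4 months) on its brighter probe. The alcohol pool was higher on both arrays at 2 and 4 months, by 0.37 ± 0.30 and 0.17 ± 0.01 on average, and 5.04% and 5.34% of all probes tested were at least as high on both arrays. The 3-month mean was 0.22 (SE 0.08, 95% confidence interval 0.02 to 0.42), with an unadjusted p of 0.0383 and an adjusted p of 0.62 by limma. Without the 2-month value the mean was 0.14 (95% confidence interval -0.10 to 0.38, unadjusted p = 0.173 by limma). The fainter probe, A_51_P441798, gave 0.04 and -0.34 (1 month), 1.07 and 0.29 (2 months) and 0.27 and -0.21 (4 months), so the probes shared the higher ratio at 2 months but not at the other months.

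Axin2, a feedback inhibitor and target of Wnt signaling, had log2 ratios of 0.14 and 0.01 (1 month), 1.22 and 1.08 (2 months) and -0.49 and -0.81 (4 months). At 2 months neither array had the control pool well above background, so the size of the difference is not known. The alcohol channels averaged 8.30 on the log2 scale, against a control floor of 8.01. That floor averages, over both arrays, the lowest value of any probe well above background, or the value of Axin2 where larger. The alcohol pool lay 1.22-fold above the floor, which carries no error and is not a safe lower bound. These values come from Aquantile-normalized single channels, and each mean holds 1 Cy5 and 1 Cy3 channel. With normexp background correction, which adds an offset of 50 and so draws dim probes towards 0, the log2 ratio at 2 months was 0.41. At 1 and 4 months neither pool was well above background.

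A change of at least 2-fold with a technical error p below 0.05 from the deposited errors was reached by 0 of the 9 genes at 1 and 4 months and by 1, Axin2, at 2 months. The deposited ratio of Axin2 passed the rule, but its control pool was not well above background. Its alcohol pool lay 1.22-fold above the control floor, so a 2-fold change is not shown. With normexp and loess, or with only probes above background in both channels, 0 genes passed at 2 months. Over all probes tested, 0.224% passed at 1 month, 0.311% at 2 months and 0.662% at 4 months. This rule compares 1 pool with 1 pool. Across the 3 months, limma called 0 of the 9 genes for the mean and 0 for the slope at an adjusted p below 0.05, as it called 0% of the 37922 probes in both tests. At an unadjusted p below 0.05 the mean passed for Ass1 and Glul and the slope for Oat and Rhbg, where 7.98% of all probes passed for the mean and 7.42% for the slope. A fit with slide as a block gave the mean of the 2 slides. The 1-month value thus weighed as much as the 2 later months together. Before moderation, its error came only from the difference between the later months, and the 1-month value had no replicate. In this fit 7.14% of all probes passed for the mean. The unadjusted p was 0.0836 for the brightest Ass1 probe and 0.0775 for Glul by limma. The second Ass1 probe, A_52_P361165, passed with a mean of 0.22 (95% confidence interval 0.03 to 0.41, unadjusted p = 0.0355, adjusted p = 0.693 by limma), and Rhbg with a mean of 0.39 (95% confidence interval 0.18 to 0.60, unadjusted p = 0.00825, adjusted p = 0.693 by limma). The intervals of the 9 genes are shown in the plot of limma estimates. An interval that spans 0 does not show that pools were equal.

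**Figure D2:**
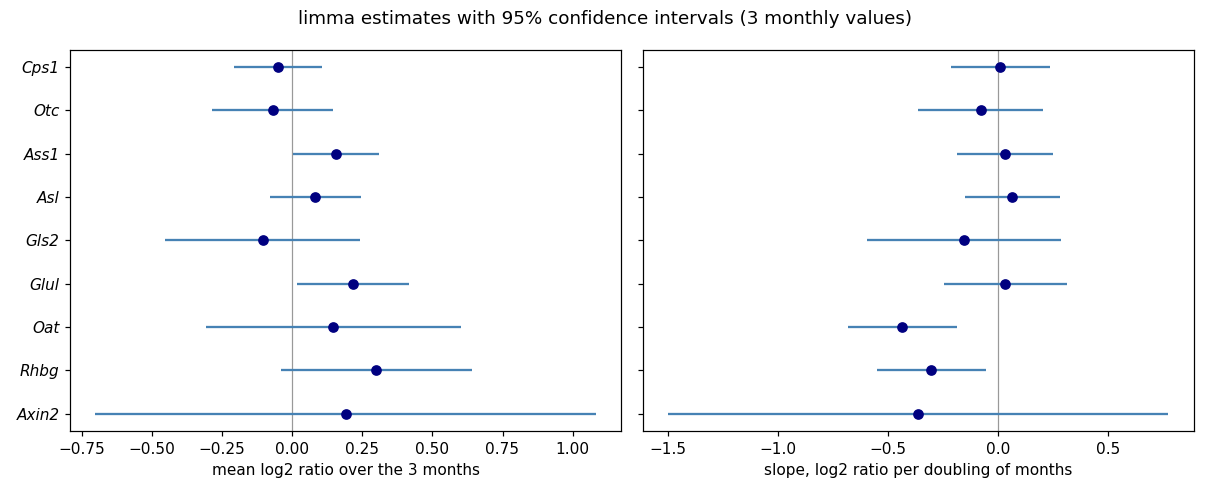
The limma estimate (points) and its 95% confidence interval (lines) for the brightest probe of each gene, as the mean log2 ratio over the 3 months (left) and the slope per doubling of the months (right). The intervals of Ass1 and Glul on the left and of Oat and Rhbg on the right lie to one side of 0 before adjustment for all probes.

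Set against each other, the pericentral genes had a higher median log2 ratio than the 5 periportal genes (Cps1, Otc, Ass1, Asl and Gls2) at 1 and 2 months. The medians were 0.32 and 0.09 (1 month), 0.31 and -0.10 (2 months) and -0.15 and -0.01 (4 months). For months 1, 2 and 4 the difference of these medians was 0.23, 0.41 and -0.13. Taken anew on each array, it was above 0 on both at 1 and 2 months, with 0.48 and 0.21, then 0.48 and 0.49, and the arrays disagreed at 4 months with 0.28 and -0.37. A median of averages need not lie between the medians of the arrays, and at 2 months it was below both. Without Axin2 the averaged differences were 0.44, 0.35 and 0.06. For Glul minus Gls2 alone they were -0.11, 0.80 and 0.27, with arrays of opposite sign at 1 and 4 months. These differences describe the chosen genes and carry no test.

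**Figure D3:**
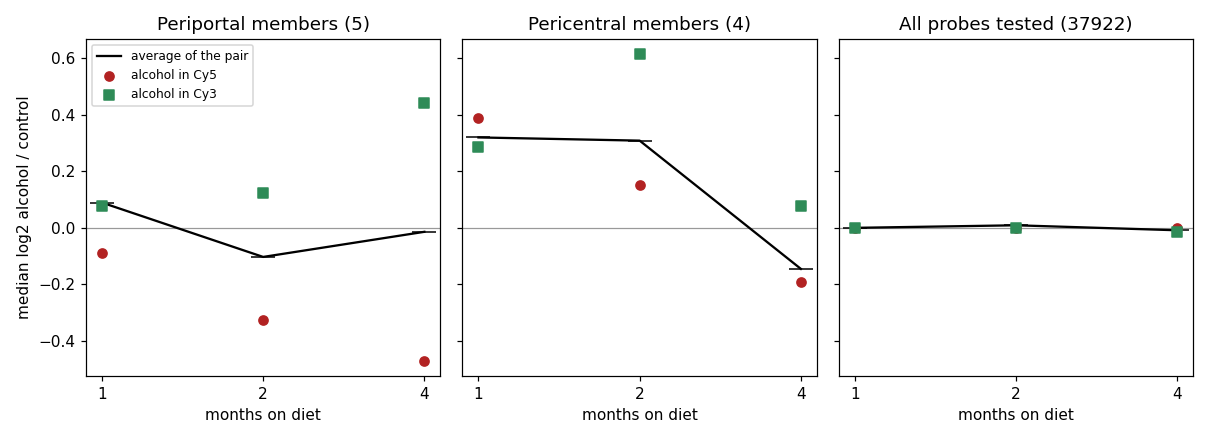
Median log2 ratio of alcohol over control (vertical axis) by months on diet (horizontal axis) for the 5 periportal genes, the 4 pericentral genes and all 37922 probes tested. Circles and squares are the arrays with alcohol in Cy5 and Cy3, and the black line joins the medians of the averaged ratios. The arrays spread around 0 for the periportal genes, reaching -0.47 and 0.44 at 4 months, while both lie above 0 for the pericentral genes at 1 and 2 months.

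The level of a gene in a pool was taken as its log2 signal minus the 75th percentile of its channel and averaged over both dyes, so that a probe is compared only with itself. Rhbg stood out by its control pools. Its level was 1.04 in the 1-month control pool and 1.69 in the alcohol pool of that month, 2.04 and 2.23 a month later, and 2.30 and 2.35 in the last pools. The order from lowest to highest was control then alcohol at each month in turn, and among neighbors in this order the array ranges overlapped between the 2-month pools and between the 4-month pools. The control level was thus 1.27 higher at 4 months than at 1 month, or 1.81 and 1.03 with scaling to the channel median and with Aquantile normalization. The median change between these control pools over the 27900 probes was -0.29, and 93.3% of them lay below the change of Rhbg. The part of the slide in this was not tested.

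Glul ran in the other direction, from 4.81 in the 1-month control pool and 4.92 in the alcohol pool, through 4.44 and 4.80, to 4.01 and 4.18 at 4 months. Its 3 lowest pools, both 4-month pools and the 2-month control, did not overlap each other, and the remaining 3 overlapped their neighbors. Its control level fell by 0.81 from 1 to 4 months, by 0.26 with scaling to the channel median and by 0.40 with Aquantile normalization, and 28.3% of the 27900 probes lay below its change. With the median, the 2-month level was instead 0.16 higher than the 1-month level in control and 0.42 higher in alcohol. With Aquantile, the 4-month control level was 0.14 higher than at 2 months.

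The brightest Ass1 probe was lowest at 4 months, with 4.67 in control and 4.86 in alcohol, against 5.52 to 5.98 in the other pools. With Aquantile normalization 4 months was no longer lowest, as its change from 2 months turned from -0.85 to 0.07 in control and from -0.80 to 0.15 in alcohol. Cps1 was highest at 1 month, at 3.70 in control and 3.66 in alcohol, against 2.98 to 3.15 later. Its control change from 1 to 4 months was -0.70, and -0.15 with scaling to the channel median, and 32.5% of probes lay below it. Within a month, the alcohol and control ranges of the brightest probes of Cps1, Otc, Ass1 and Asl overlapped throughout. The second Otc probe, A_52_P286360, was the lower in alcohol at 2 months, where its arrays gave 0.94 to 1.03 in alcohol and 1.21 to 1.33 in control. The faintest, A_52_P369776, was the higher in alcohol at 1 month, with -0.22 to -0.14 against -0.44 to -0.32.

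Oat was highest in the 1-month alcohol pool, at 3.18, above the control pool at 2.65, and the other 4 pools lay between 2.03 and 2.38 with overlapping ranges, the widest of which, in the 4-month control pool, reached 2.77. Gls2 was lowest in the 2-month alcohol pool, at 3.06. The change of the control level from 1 to 4 months depended on the scaling also in sign. Scaling to the channel median raised it by 0.55 for every probe, and turned it from -0.50 to 0.05 for Gls2 and from -0.28 to 0.27 for Oat, and Aquantile normalization turned it from 0.35 to -0.33 for Asl.

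**Figure D4:**
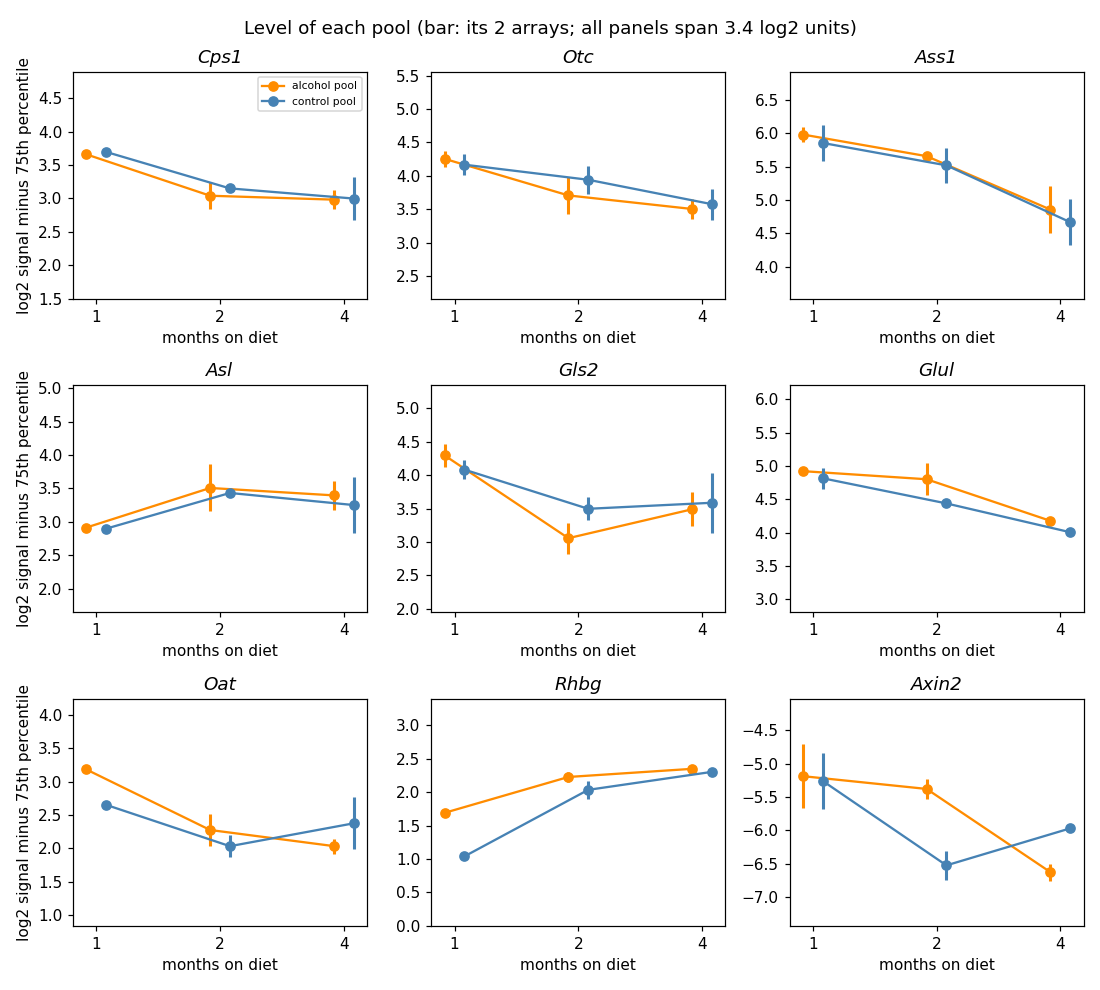
Level of each gene in the alcohol and control pools (vertical axis, log2 signal minus the 75th percentile of the channel) by months on diet (horizontal axis). Points are means of both dyes, bars join the 2 arrays, and each panel spans the same height. Rhbg rises from 1.04 to 2.30 in the control pools while the alcohol pool is higher at 1 month. Axin2 was well above background only in the 2-month alcohol pool.

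Among the 27899 other probes well above background throughout, the levels most like those of Cps1 over the 6 pools were of Rwdd4a, Nt5c1b and 4921534H16Rik, with a Pearson r of 1.00, 0.999 and 0.999. For Glul they were Ube2o, Tnni1 and Prmt3, at 0.997, 0.994 and 0.991. As many as 6303 probes followed Cps1 with an r of at least 0.95, against 158 for Glul. The 6 pools fall on 2 slides and share arrays in pairs, so these are descriptions.

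Other genes of ammonia and urea handling were not called at 2-fold, where 0.224%, 0.311% and 0.662% of all probes were at 1, 2 and 4 months. In the short lists that follow, 0 calls lies close to these shares. The list of 26 genes, which holds carriers, transaminases and other enzymes of these pathways, had 25 tested, and 0 were called at 2-fold at any month. Medians over its genes were 0.08, -0.10 and -0.02 for the 3 months in order, where all probes tested had 0, 0.01 and -0.01. At 1 month 13 of the 25 were above 0 on both arrays and 2 below, at 2 months 1 and 5, and at 4 months 3 and 5, beside the 22.0%, 17.5% and 14.8% of all probes that were above. The share of all probes below 0 on both arrays was 23.8%, 17.6% and 17.5% in the same order. The transaminase Gpt2 averaged 0.58, 0.18 and 0.18, the aspartate and glutamate carrier Slc25a12 0.08, -0.52 and -0.34, and the glycerol and urea channel Aqp9 0.06, -0.12 and -0.48. Among 39 tested genes of glutamine, arginine and ornithine transport and use, 1 was called, at 4 months, where 0.662% of all probes were. It was the glutamine transporter Slc38a2, at -0.23 ± 0.23, 0.33 ± 0.64 and 1.02 ± 0.87 (SD of the 2 arrays).

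Genes of the periportal zone other than the urea cycle were not called at 2-fold, where 0.224%, 0.311% and 0.662% of all probes were at the 3 months. The 33 tested had medians of 0.03, -0.18 and 0.08. Above 0 on both arrays were 12, 5 and 8 of them, and below 0 on both 7, 12 and 5. Tat, tyrosine aminotransferase, averaged 0.27, 0.61 and 0.69, Hsd17b6 averaged -0.42, -0.79 and -0.07, and the lipid transporter Mfsd2a -0.38, 0.96 and 0.70. A further list holds genes taken as pericentral, and their zone was not tested here. Of its 38 tested genes, 19 were above 0 on both arrays at 1 month, 12 at 2 months and 9 at 4 months. In the same order, 3, 6 and 9 were below 0 on both. The shares of all probes given for the ammonia and urea list apply here too. The median was 0.15, 0.04 and 0.04. At 1 month 1 was called up, beside 0.224% of all probes called either way. At 2 months 1 was called up and 1 down, beside 0.311%, and at 4 months 3 up and 2 down, beside 0.662%. Those called were the cytochrome P450 genes Cyp2a5, at 0.83, 1.13 and 2.22, and Cyp2c37, at 0.73, 0.76 and 1.25, the bile acid enzyme Cyp8b1, at 0.47, 0.34 and -1.10, the nucleotidase Nt5e, at 0.24, 0.53 and 1.16, and the hepcidin gene Hamp2, at 1.09, -1.43 and -1.29. Unlike Rhbg and Oat, Cyp2a5 and Cyp2c37 had their highest ratio at 4 months; the difference between genes was not tested.

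Of 47 Wnt and beta-catenin genes, 0 were called, beside 0.224%, 0.311% and 0.662% of all probes at 1, 2 and 4 months. The medians were 0.01, 0.03 and -0.02. The ubiquitin ligase Rnf43, a Wnt target that limits the pathway, averaged -0.05, -0.40 and -0.55, Btrc 0.21, -0.36 and -0.35, and the receptor Fzd6 0.10, 0.10 and 0.25. Of 30 regulators of urea cycle genes, 1 was called, at 4 months, where 0.662% of all probes were. It was the transcription factor Foxa2, at 0.21 ± 0.04, -0.47 ± 0.22 and -1.01 ± 0.21.

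Markers of other cells lay to one side of 0 at some months. At 1 month, where Rhbg and Oat were highest, 10 of 15 endothelial markers and 8 of 13 Kupffer cell and macrophage markers were above 0 on both arrays and 0 were below on both, with median log2 ratios of 0.21 and 0.23. Of all probes 22.0% were above and 23.8% below, and 0.224% were called at 2-fold at that month. No endothelial marker was called at 2-fold (0 of 15), and 1 Kupffer cell and macrophage marker was at 1 month, Emr1, at 1.23 ± 0.74. The hemoglobin genes Hba-a1 and Hbb-b1, whose near-identical copies may share signal, were at 1.51 ± 0.20 and 1.97 ± 0.43. The summed level of the 6 erythroid markers was 6.46 in the 1-month alcohol pool and 4.84 to 5.89 in the other pools, and at 4 months it was 5.46 in alcohol and 4.97 in control. At that month their median log2 ratio was 0.27, with 2 of 6 above 0 on both arrays and 1 below, Alas2, at -2.00. At 4 months, 15 of 21 pancreas acinar markers were above 0 on both arrays, against 14.8% of all probes, and Cpb1, Cela2a and Pnliprp1 were at 2.17, 3.75 and 2.42. The 14 hepatocyte markers tested were all well above background on all arrays, with medians of 0.07, -0.13 and 0.01. In month order, 4, 1 and 2 were above 0 on both arrays and 1, 5 and 1 below. At 2 months 17.6% of all probes were below. At 2 months, 6 of 9 cholangiocyte markers were above 0 on both arrays and 1 was below, where 17.5% of all probes were above, with a median of 0.07. The 9 cholangiocyte, 13 stellate cell and fibroblast, 12 lymphocyte and 9 pancreas endocrine markers tested had 0 calls. The shares of all probes called were 0.224%, 0.311% and 0.662% at 1, 2 and 4 months. The part of these cells in the ratios of the 9 genes was not tested.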

How the data were processed

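Scanner output of the 6 dual-color arrays, made with Feature Extraction 9.1.1.1, was deposited. In it the authors give each channel's intensity after background correction and dye normalization, and for each spot a log10 ratio (Cy5 to Cy3) and a technical error. They also deposited a table of log10 ratios already turned to alcohol over control. Groups and dyes came from the labels. The deposited log10 ratios were given the direction alcohol over control, converted to log2, averaged over spots of a probe and over the dye-swap pair of a month. Control spots were left out. Levels came from the processed signals.

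The 3 monthly values were tested with limma 3.58.1 in R 4.3.3 against 0 and for a slope on log2 of the month, over the 37922 probes that exceeded background clearly in 1 or more channels, with Benjamini-Hochberg adjustment at 0.05. The fit was tested on simulated data. Pools were the only replicates, so p-values do not measure the spread between mice. Other steps used Python, numpy, pandas and scipy.

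The 9 genes and the lists of pathway and cell type genes were chosen with earlier results of these data known. All 9 genes are named, and a further gene of the list is not reported here and enters no count or median. Of each other list, genes called at 2-fold are named, otherwise at most 3 with the largest mean ratio among probes above background throughout. Alternatives were other background correction, averages, filters, thresholds, scalings, leaving out months, and slide as a block.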

Additional observations from a re-analysis of the deposited data

Results flagged for a closer look

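Arrays of different months fell on opposite sides of 0 for the genes given here, a difference between months that was not tested. For Axin2, both arrays were above 0 at 1 and 2 months and below 0 at 4 months, and its averaged log2 ratio was 0.73 higher at 1 month and 1.80 higher at 2 months than at 4 months. Neither pool was well above background at 1 or 4 months, nor the control pool at 2 months, so these differences give no size of a change. Genes higher at 1 month than later were Slc25a12, by 0.59 against 2 months and 0.42 against 4 months, Btrc, by 0.57 and 0.56, Foxa2, by 0.68 and 1.22, and Hamp2, by 2.52 and 2.39. Cyp8b1 was 1.57 higher at 1 month than at 4 months. Genes lower at 1 month were Mfsd2a, by a difference of 1.34 from 2 months and 1.08 from 4 months, and Slc38a2, by a difference of 1.26 from 4 months. The acinar gene Cpb1 was 2.48 higher at 4 months than at 1 month, and Cela2a was 4.05 and 4.27 higher at 4 months than at 1 and 2 months, when it was not well above background in the alcohol pools, so that these differences give no size either. All values are differences of averaged log2 ratios of alcohol over control. Month and slide cannot be told apart for the comparisons with 1 month.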

How the results depend on the processing

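No member was called by limma under any alternative run. The 2-fold call of Axin2 at 2 months was lost, leaving 0 members, with normexp and loess and with probes above background in both channels of that month, and a 1.5-fold threshold called 1 member, Rhbg, at 1 month. Leaving out each month in turn gave means between -0.15 and 0.0100 for Otc, -0.26 and 0.0597 for Gls2, -0.0448 and 0.39 for Oat, -0.29 and 0.61 for Axin2, 0.12 and 0.43 for Rhbg, 0.14 and 0.27 for Glul, 0.14 and 0.17 for Ass1, 0.05 and 0.11 for Asl, and -0.07 and -0.02 for Cps1. The sign turned without the second month for Otc, Gls2 and Axin2. It turned without 1 month for Oat, to -0.0448 within the slide of 2 and 4 months. The slopes of all 9 genes kept their sign under the alternatives run. The pericentral minus periportal difference of 0.23 at 1 month became 0.48 with alcohol in Cy5 alone and 0.44 without Axin2. At 2 months 0.41 became 0.44 with normexp and loess, 0.48 with alcohol in Cy5 alone, 0.49 with alcohol in Cy3 alone, 0.60 with means and 0.35 without Axin2. At 4 months -0.13 became 0.28 with alcohol in Cy5 alone and 0.06 without Axin2. Over all probes, the 85, 118 and 251 2-fold calls at 1, 2 and 4 months became 277, 588 and 1085 at 1.5-fold and 51, 66 and 150 with 2-fold on each array. They became 61 and 144 at 2 and 4 months with normexp and loess, 76 at 2 months with probes above background in both channels, and 480 at 4 months with error weights. For all probes, limma went from 0 calls to 9 for the mean and 50 for the slope with normexp and loess, to 6 for the mean with probes above background throughout, and to 1 for the slope without moderation. Causes were not tested. Median centring changed no call, and every array had a median log2 ratio of 0. The alcohol and control pools of a month are paired by sharing arrays, so the limma mean is itself a paired test over 3 months. A fit with slide as a block changed no adjusted call. No block on replicate number was run, since the labels give none.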
